A study of Mus musculus with 27 samples.

Results

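The vascular endothelial growth factor (VEGF) family was followed here as 10 genes, chosen by name, out of the 40129 genes in the table. They were 5 ligands (Vegfa, Vegfb, Vegfc, Vegfd and Pgf) and 5 receptors or co-receptors (Flt1, Kdr, Flt4, Nrp1 and Nrp2), and all 10 passed the filter that left 27137 genes for testing. The mice were wild-type (WT) pups of the strain labelled C57BL/6 (C57BL/6J in the methods), and each library came from the whole retina of 1 mouse, either 1 eye or both eyes pooled. In the oxygen-induced retinopathy (OIR) model, pups breathed 75% oxygen from postnatal day (p) 7 to p12 and then room air, whereas controls (nOIR) stayed in room air throughout. The 4 groups held 6 nOIR p14 mice, 6 OIR p14 mice, 6 nOIR p17 mice and 8 OIR p17 mice. Another nOIR p14 mouse, S4, was excluded from all comparisons, as in the published analysis.

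VEGF-A is a secreted protein that endothelial cells sense, and its gene is switched on by hypoxia-inducible factors when a tissue lacks oxygen. KDR (VEGFR2) passes on most of its signal, FLT1 (VEGFR1) binds VEGF-A, VEGF-B and placental growth factor (PGF) and also acts as a decoy, and FLT4 (VEGFR3) binds VEGF-C and VEGF-D. The neuropilins NRP1 and NRP2 are co-receptors that also bind semaphorins. In the retina, VEGF-A from glia and neurons guides vessel growth, and drugs that capture it are used against retinal neovascularization.

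Values are normalized reads, and changes are log2 fold changes of normalized reads plus 1 with a standard error (SE), tested by limma with Benjamini-Hochberg adjustment over all genes tested. A change was called at an adjusted p under 0.05. Recovered totals lay between 17029536 and 33593428 reads per mouse. The mice of a group came from fewer litters than mice, and which litter a mouse belonged to is not in the labels, so p-values measure the spread between these mice. Because whole retina was sequenced, more cells of a type and more RNA per cell cannot be told apart. Counts per gene also pool the splice forms of a gene, among them the soluble and the membrane-bound forms of Flt1.

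At p14, 3 of the 10 genes were called higher in OIR mice and none lower, namely Vegfa, Pgf and Flt1. Among all genes tested, 6.09% were called at p14, with 3.18% higher. At p17, 5 were called higher and none lower, namely Vegfa, Pgf, Flt1, Flt4 and Nrp1, against 12.5% of all genes, with 7.39% higher. OIR and nOIR mice were fully separated in 1 of the 10 at p14 (Vegfa), against 3.77% of all genes, and in 4 at p17 (Vegfa, Pgf, Flt1 and Nrp1), against 5.87%. Only Pgf at p17 also passed a stricter threshold, a log2 fold change above 2, as did 1.9% of all genes in that direction.

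**Figure D1:**
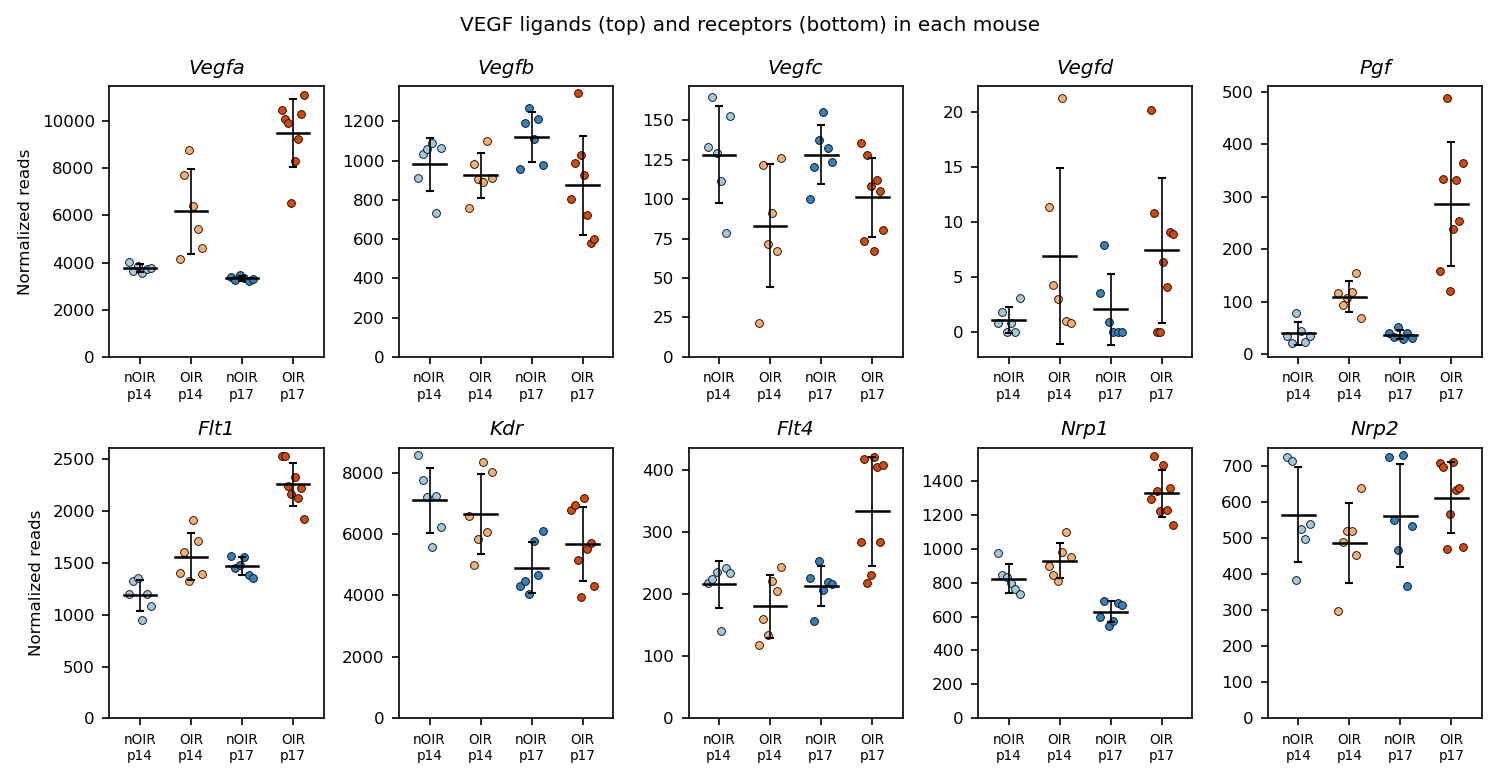
Normalized reads of each VEGF ligand (top row) and receptor (bottom row) in every mouse of the 4 groups. Points are mice, horizontal lines are group means and error bars are SD; each panel has its own linear axis. Vegfa, Pgf, Flt1 and Nrp1 of OIR p17 mice lie above all nOIR p17 mice, whereas Vegfb, Vegfc, Kdr and Nrp2 overlap.

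Vegfa encodes the main angiogenic ligand. In nOIR p14 mice it ranged from 3558 to 4042 normalized reads with a median of 3750, and in OIR p14 mice from 4151 to 8754 with a median of 5914. Every OIR p14 mouse thus lay above every control, but the OIR p14 mice were spread widely, with a coefficient of variation of 29.1% against 4.5% in nOIR p14. At p17, nOIR mice ranged from 3203 to 3490 (median 3334) and OIR mice from 6540 to 11093 (median 9998). No OIR p17 mouse came near the controls, and mouse S4 was the lowest of them. Vegfa had log2 fold changes of 0.66 for p14 and 1.49 for p17 (SE 0.13 each, adjusted p = 0.00168 and 4.45e-10 from limma). An exact permutation test (two-sided, unadjusted) largely restates the lack of overlap. It gave the smallest p it allows at each age, 0.00216 for 6 against 6 mice and 3.33e-04 for 8 against 6.

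The effect of OIR on Vegfa at p17 exceeded that at p14 by 0.83 on the log2 scale (SE 0.18, adjusted p = 0.0116 from limma). It was 1 of 2 members called in this test of the difference, in which 1.58% of all genes were called. From p14 to p17, Vegfa rose in OIR mice by 0.65 (SE 0.13, adjusted p = 0.00101). In nOIR mice it had a log2 fold change of -0.18 over the same days (adjusted p = 0.888).

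The promoter of Vegfa is shown because hypoxia-inducible factors bind the core letters ACGTG and GCGTG. The 250 bases before a start site were read on both strands (CACGT and CACGC are the same cores on the other strand) from RefSeq sequences of build GRCm38.p6. In the 250 bases before the first start site of Vegfa (chr17:46032378-46032627, minus strand) these letters do not occur, so the run below has no capitals. Sequence farther upstream was not read, so cores there are not covered. The second start site of Vegfa (chr17:46025164-46025413, minus strand) has 2 cores, GCGTG 218 bases and CACGT 211 bases before the start. Both lie within a Vegfa coding exon of the GENCODE M21 annotation, which covers 67 of the 250 bases, and the run is not shown. In Flt1 (chr5:147726012-147726261, minus strand) the capitals mark 1 core, 184 bases before the start.
Vegfa: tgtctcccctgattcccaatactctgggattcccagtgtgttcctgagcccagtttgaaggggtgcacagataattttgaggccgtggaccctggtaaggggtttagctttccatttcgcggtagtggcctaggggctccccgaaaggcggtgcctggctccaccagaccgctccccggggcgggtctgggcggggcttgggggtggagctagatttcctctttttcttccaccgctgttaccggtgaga
Flt1: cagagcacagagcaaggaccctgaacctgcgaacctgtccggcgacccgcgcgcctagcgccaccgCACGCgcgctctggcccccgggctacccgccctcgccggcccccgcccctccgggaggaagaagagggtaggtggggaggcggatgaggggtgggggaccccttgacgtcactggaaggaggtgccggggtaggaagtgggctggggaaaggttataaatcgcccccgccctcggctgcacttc
All 10 members were matched to 12 promoters in that table, and 7 of these 12 promoters had at least 1 core, 1 each of Vegfa, Vegfb, Pgf, Flt1, Kdr, Nrp1 and Nrp2. Vegfa counts here only through the coding cores of its second start site, and the cores of the other 6 lie outside coding sequence of their gene. Of all 32851 promoters, 38.6% had at least 1 core in the same length. A match of letters is a description of sequence and not evidence of binding.

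Hypoxia-induced genes were read beside Vegfa as a list of 12 from which Vegfa was left out. At p14, 8 of the 12 were higher and none lower, with a median log2 fold change of 0.64, and at p17, 10 were higher and none lower, with a median of 0.91 (over all genes tested, the medians were 0.02 and -0.02). Adrenomedullin (Adm), a vasoactive peptide, rose by 3.03 at p14 and 5.52 at p17. The oxygen sensor gene Egln3 rose by 2.64 and 3.32, and the carbonic anhydrase gene Car9 by 3.98 and 4.90. By mouse, the mean log2 level of the list lay between 9.69 and 9.99 in all nOIR mice of both ages, and between 10.6 and 11.7 in all OIR mice. Within OIR p14 the order differed from that of Vegfa. Mouse S1 had the highest level of the hypoxia list in that group (11.2) and the lowest Vegfa (4151 normalized reads). The same mouse was also lowest in its group for Vegfb, Vegfc, Flt4 and Nrp2.

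**Figure D2:**
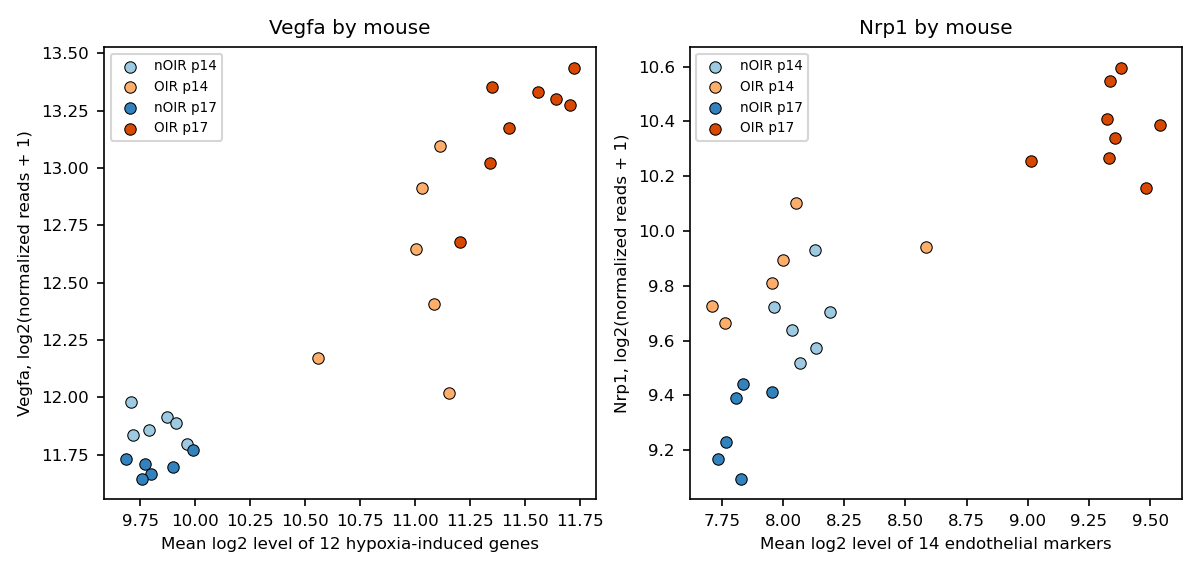
Left, Vegfa against the mean log2 level of 12 hypoxia-induced genes; right, Nrp1 against the mean log2 level of 14 endothelial markers, both as log2(normalized reads + 1), 1 point per mouse and coloured by group. All OIR mice lie to the right of all nOIR mice on the left plot, and OIR p17 mice lie apart from the other groups on the right plot.

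Pgf encodes placental growth factor, a ligand of FLT1. It ranged from 21.0 to 78.9 normalized reads in nOIR p14 mice (median 35.1) and from 68.4 to 154.9 in OIR p14 mice (median 112.0). Of the 6 OIR p14 mice, 5 lay above every control and S6 did not. At p17 the controls ranged from 28.7 to 51.9 (median 36.3) and the OIR mice from 121.1 to 487.3 (median 293.1), without overlap. Pgf rose by 1.54 at p14 (SE 0.30, adjusted p = 0.00119 from limma) and by 2.80 at p17 (SE 0.28, adjusted p = 1.20e-08). Within OIR it rose by 1.29 from p14 to p17 (SE 0.28, adjusted p = 0.00375). The larger effect at p17 did not pass, with a difference of 1.26 (SE 0.41, adjusted p = 0.157 from limma), though DESeq2 called it (adjusted p = 0.0196).

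The other ligands were not called in any of the 5 comparisons. Vegfb, a ligand of FLT1, ranged from 735.8 to 1088 normalized reads in nOIR p14 (median 1047) and from 758.0 to 1102 in OIR p14 mice (median 910.0), which overlapped. At p17 it ranged from 959.8 to 1269 (median 1153) in nOIR and from 578.0 to 1343 (median 866.4) in OIR mice. In OIR p17, 5 of 8 mice lay below every control and S3 lay above every control. The log2 fold change at p17 was -0.40 (SE 0.14, adjusted p = 0.0665 from limma). Without OIR p17 mouse S3 it was -0.50 (adjusted p = 0.00915) and without S4 -0.44 (adjusted p = 0.0464), so that single mice decided whether Vegfb was called lower. At p14 its log2 fold change was -0.08 (adjusted p = 0.877).

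Vegfc, which encodes a ligand of FLT4, ranged from 78.4 to 164.6 normalized reads in nOIR p14 mice (median 131.3). In OIR p14 mice it ranged from 21.6 to 126.0 (median 81.5), with S1 far below the others. The p17 groups ranged from 100.04 to 155.5 (median 127.9) in nOIR and from 67.3 to 135.3 (median 106.7) in OIR mice. These groups overlapped at both ages, and the log2 fold changes were -0.77 at p14 (95% interval -1.37 to -0.18, adjusted p = 0.130 from limma) and -0.36 at p17 (-0.92 to 0.19, adjusted p = 0.476). Without mouse S1 the Vegfc log2 fold change at p14 was -0.43 (adjusted p = 0.335).

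Vegfd, the other FLT4 ligand, was near the limit of detection. It was listed at 0 in 2 of 6 nOIR p14, 3 of 6 nOIR p17 and 2 of 8 OIR p17 mice. The medians were 0.88 in nOIR p14, 3.66 in OIR p14, 0.48 in nOIR p17 and 7.65 normalized reads in OIR p17 mice, and the highest value was 21.3 (OIR p14 mouse S4). With log2 fold changes of 1.51 at p14 (95% interval -0.02 to 3.04) and 1.43 at p17 (0.00 to 2.86), a difference was not detectable at this depth (adjusted p = 0.304 and 0.215 from limma).

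**Figure D3:**
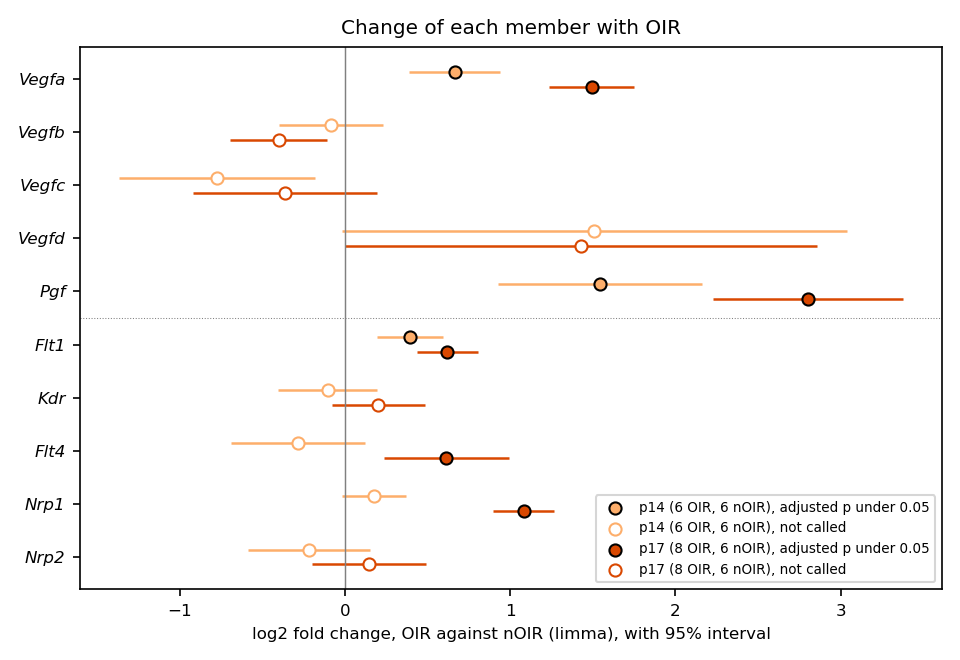
Log2 fold change of OIR against nOIR mice for each of the 10 genes at p14 (light) and p17 (dark), with 95% intervals from limma. Filled points have an adjusted p under 0.05. Pgf lies farthest to the right, and Nrp1 and Flt4 are filled only at p17.

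Flt1 encodes VEGFR1. It ranged from 951.2 to 1357 normalized reads in nOIR p14 mice (median 1200.0) and from 1327 to 1918 in OIR p14 mice (median 1504). All OIR p14 mice except S3 lay above every control. The p17 ranges were 1358 to 1565 (median 1469) in nOIR and 1921 to 2536 (median 2231) in OIR mice, without overlap. Flt1 rose by 0.39 at p14 (SE 0.10, adjusted p = 0.0108 from limma) and 0.62 at p17 (SE 0.09, adjusted p = 8.02e-06). When only the p14 groups were fitted, the p14 change had an adjusted p of 0.0558. The effects at the 2 ages differed by 0.23 (SE 0.13, adjusted p = 0.578).

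Kdr, which encodes VEGFR2, was not called at either age. It ranged from 5592 to 8584 normalized reads in nOIR p14 (median 7212) and from 4990 to 8347 in OIR p14 mice (median 6323). At p17 the ranges were 4053 to 6101 (median 4576) and 3944 to 7158 (median 5615). The groups overlapped almost completely at p14, and 3 of 8 OIR p17 mice lay above every control. The 95% interval of its log2 fold change was -0.40 to 0.20 at p14 and -0.08 to 0.48 at p17.

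Flt4, which encodes VEGFR3, ranged from 140.1 to 242.2 normalized reads in nOIR p14 mice (median 229.1) and from 117.2 to 243.8 in OIR p14 mice (median 182.6). At p17 it ranged from 156.4 to 253.5 (median 217.3) in nOIR and from 218.2 to 419.9 (median 343.7) in OIR mice. The p14 groups overlapped, whereas 6 of 8 OIR p17 mice lay above every p17 control, and S3 and S4 did not. For p14 the estimate was -0.28 on the log2 scale (SE 0.20, adjusted p = 0.526 from limma), and for p17 it was 0.61 (SE 0.18, adjusted p = 0.0248). The call at p17 was lost without OIR p17 mouse S2 (adjusted p = 0.0518), S5 (0.0513) or S6 (0.0534) and without nOIR p17 mouse S2 (0.0813). The difference between the ages was 0.90 (SE 0.27, adjusted p = 0.108), and without nOIR p14 mouse S5 it was 1.02 (adjusted p = 0.0496). Within OIR, Flt4 rose by 0.88 from p14 to p17 (SE 0.18, adjusted p = 0.00256).

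Nrp1, the co-receptor of VEGF-A and semaphorin 3A, had the smallest adjusted p of the 10 genes for the difference between the ages by limma. It ranged from 731.5 to 974.0 normalized reads in nOIR p14 (median 814.4) and from 809.7 to 1099 in OIR p14 mice (median 923.1). At p17 it ranged from 546.4 to 693.7 (median 634.3) in nOIR and from 1140 to 1547 (median 1317) in OIR mice. The p14 groups overlapped, while every OIR p17 mouse lay above every mouse of the other 3 groups. Nrp1 had a log2 fold change of 0.18 for p14 (SE 0.10, adjusted p = 0.372 from limma), and for p17 it rose by 1.08 (SE 0.09, adjusted p = 3.58e-10). The effect at p17 was larger by 0.91 (SE 0.13, adjusted p = 9.32e-05).

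Nrp2, the co-receptor for VEGF-C and class 3 semaphorins, overlapped between OIR and nOIR mice at both ages. It ranged from 385.4 to 727.2 normalized reads in nOIR p14 (median 532.8) and from 298.2 to 640.8 in OIR p14 mice (median 505.5). At p17 the ranges were 368.3 to 731.1 (median 543.7) and 470.0 to 711.6 (median 637.2). Its 95% intervals were -0.59 to 0.15 at p14 and -0.20 to 0.49 at p17 on the log2 scale.

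Change with age was followed separately in the controls and in OIR mice. These comparisons use the same mice as those above and are not independent of them. In nOIR mice, limma called none of the 10 genes between p14 and p17, while 0.317% of all genes were called. The 3 members with the smallest adjusted p were Kdr at -0.54 (SE 0.15, adjusted p = 0.139), Nrp1 at -0.39 (SE 0.10, adjusted p = 0.0732) and Flt1 at 0.32 (SE 0.10, adjusted p = 0.217). DESeq2 called 2 of them, Kdr (adjusted p = 0.0470) and Nrp1 (adjusted p = 0.00917), both lower at p17. Among all 27137 genes tested, DESeq2 called 109 higher and 127 lower at p17. Without overlap between the ages, Vegfa and Nrp1 were lower and Flt1 was higher in nOIR p17 mice, 3 of 10 genes against 1.49% of all genes. For Flt1 this separation was narrow, with a highest nOIR p14 mouse at 1357 and a lowest nOIR p17 mouse at 1358 normalized reads.

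In OIR mice, 5 of the 10 genes rose from p14 to p17 and none fell, while 5.91% of all genes were called. These were Vegfa, Pgf, Flt1, Flt4 and Nrp1. Flt1 rose by 0.54 (SE 0.09, adjusted p = 2.07e-04 from limma) and Nrp1 by 0.51 (SE 0.09, adjusted p = 3.57e-04), and in both every OIR p17 mouse lay above every OIR p14 mouse, narrowly in Flt1 (1921 against 1918 normalized reads). Groups of OIR mice without overlap were found in 1.8% of all genes. Nrp1 thus had estimates of opposite sign with age, 0.51 in OIR and -0.39 in nOIR mice, of which only the first was called by limma. The difference of these 2 changes is the same contrast as the larger effect of OIR on Nrp1 at p17.

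Levels of different genes were compared per kilobase (kb) of exon, with lengths of the exon union from GENCODE M21. The union pools all annotated exons of a gene, 13.5 kb for Flt1 and 9.03 kb for Kdr. Ranks, shares and ratios between genes therefore depend on the annotation. In nOIR p14 mice, Vegfa was first with 879.2 ± 39.5 normalized reads per kb (SD, n = 6), followed by Kdr with 785.7 ± 118.4 and Vegfb with 612.0 ± 84.5. Neighbours in this order of 3 overlapped between mice. All 3 lay clear of Flt1 with 87.8 ± 11.1 and Nrp1 with 84.1 ± 8.70, which overlapped. Below these came Vegfc with 52.4 ± 12.6, Nrp2 with 47.8 ± 11.2, Flt4 with 26.2 ± 4.62, Pgf with 13.7 ± 7.26 and Vegfd with 0.47 ± 0.50. In nOIR p17 mice Vegfb stood above Kdr, with 698.2 ± 79.5 and 542.5 ± 92.4 normalized reads per kb (SD, n = 6), but these overlapped.

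In OIR mice of both ages Vegfa stood alone at the top. At p14 it had 1441 ± 420 normalized reads per kb (SD, n = 6) and did not overlap Kdr at 735.4 ± 144.3, and at p17 it had 2216 ± 340 (SD, n = 8) without overlap with Kdr at 629.9 ± 133.4. Pgf moved from rank 9 of the 10 genes in nOIR p17 mice to rank 6, with 98.5 ± 40.7 normalized reads per kb, overlapping Nrp1 above it and Nrp2 below it. In OIR p14 mice Pgf held rank 7. Of the summed ligand level per kb, Vegfa made up 50.6% ± 3.0 in nOIR p17 mice and 76.1% ± 5.85 in OIR p17 (SD, n = 6 and 8), while Vegfb made up 45.2% ± 2.88 and 19.0% ± 5.85. These shares did not overlap between the p17 groups. At p14 the share of Vegfa was 56.6% ± 4.11 in nOIR and 68.0% ± 5.73 in OIR mice (SD, n = 6 each), and the ranges met between 62.2% and 63.5%. Among the receptors, Kdr made up 68.5% ± 3.56 in nOIR p17 and 61.0% ± 3.32 in OIR p17 mice, and Nrp1 made up 8.21% ± 1.14 and 13.4% ± 1.35.

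**Figure D4:**
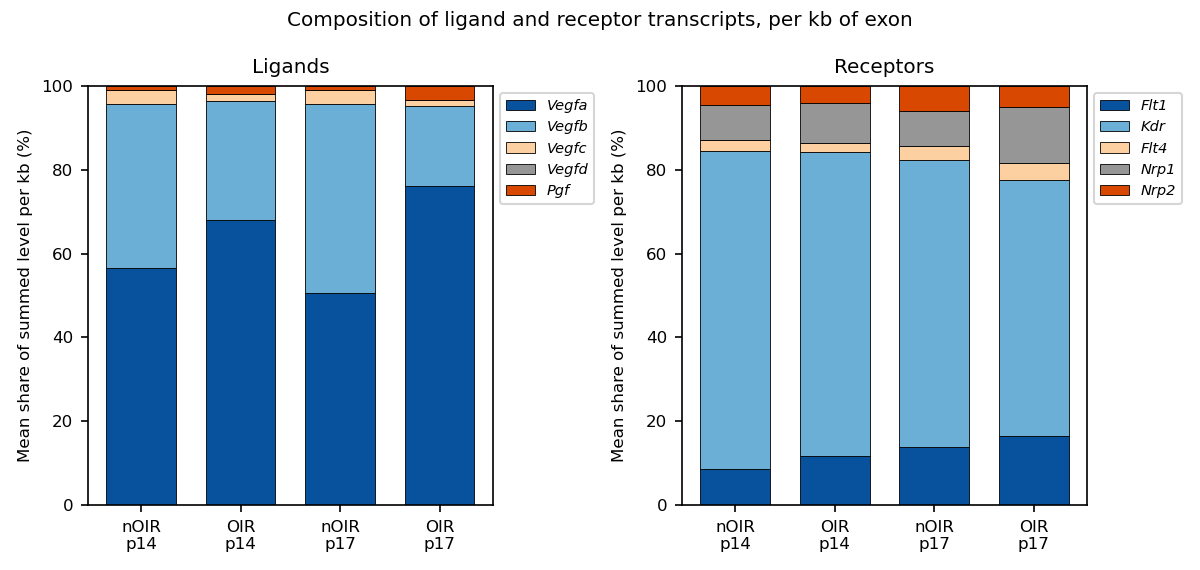
Mean share of each ligand (left) and receptor (right) in the summed level per kb of exon, by group, as stacked bars that add to 100%. The Vegfa share of ligands is 50.6% in nOIR p17 and 76.1% in OIR p17 mice, and Kdr is the largest share of receptors in every group.

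The ratio of Flt1 to Kdr within a mouse does not depend on library size, but its value depends on the exon lengths used. Per kb, Flt1 was at 0.0932 to 0.126 of the level of Kdr in nOIR p14 mice (median 0.114) and at 0.117 to 0.216 in OIR p14 mice (median 0.153). At p17 the ratio lay between 0.149 and 0.245 in nOIR (median 0.207) and between 0.218 and 0.368 in OIR mice (median 0.259). The ratio thus overlapped between OIR and nOIR at each age, whereas p17 mice lay above all p14 mice both in nOIR and, narrowly, in OIR (lowest p17 ratio 0.218, highest p14 ratio 0.216). Nrp1 relative to Nrp2 had a median ratio of 1.73 in nOIR p14, 2.18 in OIR p14, 1.46 in nOIR p17 and 2.58 in OIR p17 mice.

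**Figure D5:**
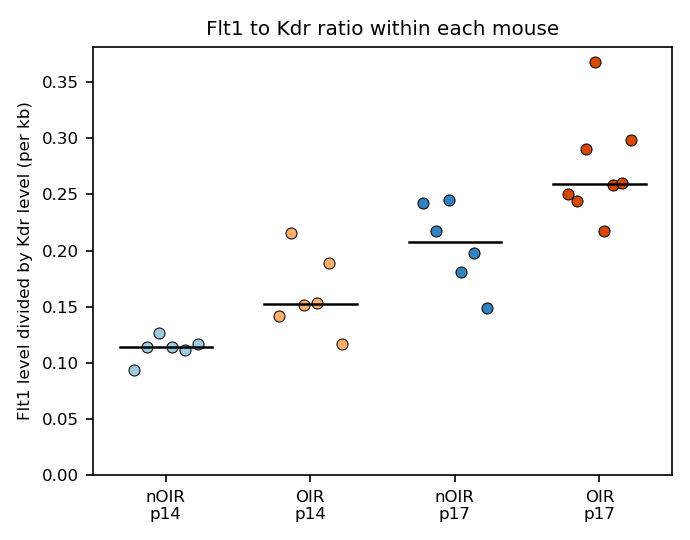
Level of Flt1 divided by the level of Kdr, both per kb of exon, in each mouse by group; lines are medians and the axis starts at 0. The medians are 0.114, 0.153, 0.207 and 0.259 in the order shown, and OIR and nOIR mice overlap at both ages.

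Lists of cell type markers were read in the same mice as the ligands and receptors. Of 14 endothelial markers, 2 were higher and 1 lower in OIR mice at p14 (Ecscr, Pecam1 and Cldn5), and 13 were higher at p17, led by Ecscr, Eng and Tie1. The mean log2 level of this list lay between 7.96 and 8.19 in nOIR p14, 7.71 and 8.58 in OIR p14, 7.74 and 7.96 in nOIR p17, and 9.01 and 9.54 in OIR p17 mice. None of these markers was at 0 on average in any group. Of 8 pericyte markers, 4 were lower at p14 (Kcnj8, Abcc9 and Rgs5 first) and 7 higher at p17 (Rgs5, Higd1b and Cspg4 first). Microglia and macrophage markers had 1 of 8 higher at p14 (Cd68) and 6 at p17 (Cx3cr1, Cd68 and Csf1r first). None of 4 red blood cell genes was called at p14 and all 4 were higher at p17 (Hbb-bs, Alas2 and Hba-a1 first). Markers of Müller glia had 1 higher (Vim) and 5 lower of 8 at p14 (Aqp4 and Glul first), and 1 higher (Vim) and 6 lower at p17 (Aqp4 and Abca8a first). The list of astrocyte markers had 1 of 4 higher at p14 (Gfap), and 2 higher (Gfap and Pax2) and 1 lower (Igf1) at p17. Levels within this list differed widely, with means in nOIR p17 mice of 1496 normalized reads for Igf1 and 3.65 for Pax2. Rod markers had 2 of 7 lower at p14 (Gnat1 and Pde6a) and 3 at p17 (Pde6a, Sag and Pde6b). Horizontal cell markers had 1 of 4 lower at each age (Calb1). Retinal ganglion cell markers had 2 of 7 lower at p14 (Nefm and Nefl) and 4 at p17 (Nefm, Nefl and Pou4f2 first). The list of lymphatic markers had no call at p14, and 1 higher (Pdpn) and 2 lower (Lyve1 and Prox1) of 4 at p17. In nOIR p14 mice its summed level was 7211 to 9148 normalized reads, above the 5190 to 6038 of the endothelial list. Which cells the reads of the astrocyte and lymphatic lists came from was not tested. The 7 markers of pigment epithelium and choroid and the 6 of lens had no call at either age, while the mean log2 level of the lens list ranged from 1.46 to 10.9 over the mice. The part of these cell types in the results on the ligands and receptors was not tested.

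Because endothelial markers rose at p17, each gene was also taken relative to the mean log2 level of that list in the same mouse. Between nOIR and OIR p17 mice, the median of the list was higher by 1.53. The median of Kdr was higher by only 0.30, so that its level relative to the list went from 4.30 to 3.13, without overlap. Flt1 went from 2.69 to 1.82, Flt4 from -0.04 to -0.99 and Nrp1 from 1.46 to 1.03. Altogether 7 of the 10 genes were lower relative to the list without overlap at p17, all but Vegfa, Vegfd and Pgf, but so were 55.3% of all genes tested. Vegfa stayed near the list, with medians of 3.92 and 3.88, and the groups overlapped. Pgf was higher relative to the list, from -2.66 to -1.16 without overlap, as were 0.446% of all genes. At p14 the median of the list differed by -0.12, and Vegfa was higher relative to it in every OIR mouse (median 3.79 in nOIR and 4.26 in OIR), as were 1.77% of all genes.

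Genes that act with the family were taken as 3 lists. In the intracellular VEGF signalling cascade, 1 of 54 genes was higher and 1 lower at p14, the GTPase gene Nras at 0.59 and the p38 kinase gene Mapk12 at -0.77. At p17, 10 were higher and 8 lower, with the PI3-kinase subunit gene Pik3cd at 0.97, the GTPase gene Rac2 at 2.26 and Nras at 0.51 first by adjusted p. The medians of this list, -0.04 and -0.06, lay near those of all genes, but a median does not show changes in opposite directions. For all 3 lists the counts stand beside the share of all genes called, 6.09% at p14 and 12.5% at p17. Of all genes, 3.18% were called higher at p14 and 7.39% at p17.

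Of 26 genes for processing of VEGF and partners of its receptors, 3 were higher and 3 lower at p14, and 6 higher and 4 lower at p17, with medians of -0.02 and -0.07. Adamts1, a protease that can sequester VEGF, rose by 0.94 and 1.05, and the matrix gene Ccn2 by 0.75 and 1.77 at p14 and p17. Mmp9, a matrix protease gene, had a log2 fold change of -0.46 at p14. Hspg2, which encodes the heparan sulfate proteoglycan perlecan, rose by 1.05 at p14 and 2.41 at p17.

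Of 18 genes induced by VEGF in endothelium, 7 were higher and 1 lower at p14 (median 0.54), and 14 were higher and 1 lower at p17 (median 1.93). Egr2, an immediate early gene, rose from 2.79 ± 2.27 to 178.7 ± 76.7 normalized reads (SD, n = 6 each) for p14, which is 5.74 on the log2 scale, and by 4.34 for p17. For Egr2 the effect at p17 minus that at p14 was -1.40 (SE 0.80, adjusted p = 0.570 from limma). The tip cell gene Esm1 rose by 4.94 at p14 and 7.85 at p17, the peptide ligand gene Apln by 1.57 and 4.43, and Angpt2, which encodes a ligand of the receptor TIE2, by 0.88 and 2.88. The lower genes were Vcam1 at p14 (-0.57) and Nr4a2 at p17 (-0.48). Other stimuli also induce many genes of this list, so its counts do not measure VEGF signalling by itself.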

How the data were processed

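Retinal RNA of 27 mice was sequenced by the authors, who counted reads on the genes of GENCODE M28, a GRCm39 annotation. The submitters' processing notes name FastQC 0.73, STAR 2.7.8a, featureCounts 2.0.1, R 4.0.3 and DESeq2 1.34. The signal that the authors deposited is normalized reads, that is, counts over a size factor for each mouse. All values (100%) could be turned back into whole reads, each to a relative tolerance of 1e-06 of the count (1e-06 reads at a count of 0). Their log2 fold changes and the p-values they adjusted before the table was deposited were not used.

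The members and lists were chosen with earlier results of these data known. The 10 members, the counts of each list and up to 3 genes of each list with the smallest adjusted p at each age are named, and Vcam1 and Nr4a2 were named after their values were seen. Under R 4.3.3, limma 3.58.1 (lmFit, then eBayes with its trend option) was fitted to log2(normalized reads + 1) of 4 groups at once, for genes whose mean was 1 normalized read or more. Mouse S4 of nOIR p14 was left out, which left 26 mice, and 95% intervals come from the same fit. Exact permutation tests, ratios and plots used Python 3.11.15, scipy 1.17.1, numpy 2.4.6, pandas 2.3.3 and matplotlib 3.10.9. Limma was tested on simulated data. Alternatives included edgeR 4.0.16 and DESeq2 1.42.0 on recovered reads. Exon lengths come from GENCODE M21 (GRCm38) and promoters from RefSeq (GRCm38.p6), which is another build than that of the counts. An exon of the miRNA gene Mir1903 lies on an exon of Nrp1, and their reads cannot be told apart. The genes most like Vegfb are not reported here.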

Additional observations from a re-analysis of the deposited data

Results flagged for a closer look

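Flt4 in nOIR p14 mouse S5 stood far below the rest of its group, with 140.1 normalized reads against a group median of 229.1. Dixon's ratio of its gap to the range was 0.767 for 6 mice, and 40 groups of values were checked, of which chance flags about 1 in 20.

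The effect of OIR differed between p17 and p14 for Vegfa by 0.83 and for Nrp1 by 0.91 on the log2 scale, by limma's test of the difference (adjusted p = 0.0116 and 9.32e-05).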

How the results depend on the processing

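Of 50 results on single members, 42 kept their side of the threshold under all alternatives that were run, and no called result changed direction. Some results that were not called did change sign, such as Vegfc between ages in nOIR mice (log2 fold change -0.108 to 0.104). The counts of members called at p14, at p17 and between ages in OIR mice stayed within 1.5 times the reported ones. Leaving out each mouse in turn gave 3 called at p14, 4 to 6 at p17, 2 to 3 for the difference between ages, 5 between ages in OIR and 0 in nOIR mice. Mice with the same number were not paired, since the correlation of their deviations ranged from -0.19 to 0.25. With the replicate block, the difference between ages was called for 1 member in place of 2, since Vegfa had 0.74 (adjusted p = 0.0700), and Flt4 at p17 had an adjusted p of 0.0786. DESeq2 called 4 members for that difference, Vegfa, Pgf, Flt4 and Nrp1. Among all 27137 genes tested it called 597 higher and 93 lower, where limma called 389 and 40. Between ages in nOIR mice, where limma called 0, S4 included gave 1 (Nrp1), the compared groups only 1 (Kdr), the same total 1 (Nrp1) and DESeq2 2 (Kdr and Nrp1). Among all genes, limma called 43 higher and 43 lower there. These fits called 52 and 60, 114 and 90, 39 and 79, and 109 and 127, in the same order. Quantile normalization gave Flt4 at p17 an adjusted p of 0.0714. The cause was not tested. Vegfd was not tested when a mean of at least 10 was required.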

Other observations

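Genes whose levels were most like those of a member were ranked by Pearson's r of log2 values over 26 mice, among 19004 genes whose mean was 10 normalized reads or more. All r values share the differences between groups, so r of the deviations from the group means is given second, as a description. For Vegfa the first genes were Apln (0.964 and 0.681), Neurog2 (0.943 and 0.624) and Gm16754 (0.935 and 0.601). For Pgf they were Anxa2 (0.955 and 0.726), Fxyd5 and Sertad1. Nrp1 was most like the basement membrane collagen gene Col4a1 (0.933 and 0.552), Bgn and Pecam1, and Flt1 was most like Prrx1 (0.884 and 0.393), Lama4 and Nostrin. Flt4 was most like Arap3 (0.824 and 0.656), Tgfbr2 and Actn4.

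For Kdr, Vegfc and Nrp2, which were not called between OIR and nOIR mice, both r values were close. Kdr was most like Trak2 (0.834 and 0.861), Tnc and Zbtb34, Vegfc like Lrrc4b (0.822 and 0.813), Dpysl2 and Gm29514, and Nrp2 like Unc13a (0.803 and 0.768), Plxna3 and Tgfbr3l. The endothelial marker Pecam1 was the only gene of the endothelial list among the genes named here.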
